A study of Mus musculus with 18 samples.

Results

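Class I odorant receptors are the older of the 2 branches of the odorant receptor family, and in the mouse their genes lie together on chromosome 7 around the beta globin genes. The members described here are the 129 protein-coding Olfr genes that the deposited count table places on chromosome 7 between 102 and 105.6 Mb (mm10), out of 54532 genes in the table. The same table holds 1006 other protein-coding Olfr genes, of which 294 lie on chromosome 2 and 132 on chromosome 9. The members span 2.893 Mb, 65 on the plus and 64 on the minus strand, from Olfr543 at chr7:102476579-102481679 to Olfr692 at chr7:105368230-105369355.

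RNA of mouse nasal mucosa was sequenced in 18 libraries, 6 in each of the groups C10, CRS and CON. CRS mice model chronic rhinosinusitis, a lasting inflammation of the nose and sinuses: on days 0 to 2 and 7 to 11 their noses received 20 µg of papain, a plant protease that provokes allergic inflammation, in 20 µL of saline. C10 mice are taken to have had the same papain course, since the protocol gives the compound C10 to CRS mice, with 10 µL of C10 solution (10 mg/mL) instilled on each side once a day for 10 days from the initial papain dose. APE1, which the compound inhibits according to the title of the series, repairs DNA and has a redox function. What CON mice received, and the strain, sex and age of the animals, are not given in the labels. Nothing states that each library came from its own mouse, and the p-values then reflect only the spread among libraries, which may be technical.

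Each olfactory sensory neuron expresses 1 odorant receptor gene from 1 allele, so the level of a receptor in whole tissue follows both the number of neurons that chose it and the RNA in each. In bulk RNA fewer neurons and less receptor RNA per neuron cannot be told apart. Class I receptors are used by neurons of the dorsal zone of the olfactory epithelium, and a long-range enhancer, the J element, acts on the cluster as a whole; many class I receptors respond to water-soluble ligands such as carboxylic acids. The Olfr genes outside this window are, as generally described, class II receptors.

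Totals per library ran from 15883573 to 18433866 counts. The libraries differed in their content of olfactory tissue: Omp, the marker of mature olfactory neurons, ran from 1605 to 3026 CPM (counts scaled by TMM library sizes) in C10, from 1374 to 3490 CPM in CRS and from 1241 to 2843 CPM in CON. CRS 1 and CON 5 were the lowest libraries of their groups for Omp, and CRS 2 and CRS 5 were the highest of all 18. C10 6 also held vomeronasal receptor RNA, 83.3 summed CPM against 2.59 to 19.9 CPM in the other libraries; the part of this in the results was not tested.

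Most of the cluster was detected. Of the 129 receptors, 125 had at least 1 count, 106 had at least 3 counts in every library, and 111 passed the filter on low counts and were tested. Olfr564, Olfr573-ps1, Olfr625-ps1 and Olfr688 had 0 counts in all libraries, and the remaining receptors that were not tested had 2 to 180 counts over all libraries. Per library, 118.2 ± 1.17 receptors had at least 3 counts in C10, 114.5 ± 2.43 in CRS and 115.7 ± 2.07 in CON (SD, n = 6 each). Together the members took 232967 counts, with a median of 1436 per receptor over all libraries; 3 counts in a library equal 0.163 to 0.193 CPM, a floor that covers counting error only.

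The sequence before a few members is shown because promoters of this family often hold a TATA box or sites for Ebf and homeodomain factors. RefSeq start windows (GRCm38.p6) were found for 107 of 129 members, but 80 of them begin at a coding start rather than at a transcript start. In 7 members the window lay within 150 bases of the start in the deposited gene model and not at a coding start. The 250 bases before the start are printed for 4 of these, 5′ to 3′ on the gene's strand: Olfr67 and Olfr566, which are among the 10 highest per kilobase, Olfr69, a close neighbour of Olfr67, and Olfr630, one of the receptors with the largest differences between groups. They lie on the minus strand at chr7:103791831-103792080, chr7:102858766-102859015, chr7:103771595-103771844 and chr7:103757351-103757600. Capitals mark TATAAA on either strand.
Olfr67: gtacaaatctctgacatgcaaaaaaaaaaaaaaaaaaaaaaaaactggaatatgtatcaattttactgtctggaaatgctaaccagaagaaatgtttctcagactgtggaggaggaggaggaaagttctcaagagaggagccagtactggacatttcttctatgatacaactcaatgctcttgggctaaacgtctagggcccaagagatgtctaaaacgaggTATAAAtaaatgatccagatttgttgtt
Olfr566: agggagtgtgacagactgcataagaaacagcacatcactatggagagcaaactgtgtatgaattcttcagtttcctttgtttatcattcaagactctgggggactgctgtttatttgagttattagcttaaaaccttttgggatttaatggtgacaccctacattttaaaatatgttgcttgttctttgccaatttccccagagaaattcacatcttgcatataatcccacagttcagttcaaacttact
Olfr69: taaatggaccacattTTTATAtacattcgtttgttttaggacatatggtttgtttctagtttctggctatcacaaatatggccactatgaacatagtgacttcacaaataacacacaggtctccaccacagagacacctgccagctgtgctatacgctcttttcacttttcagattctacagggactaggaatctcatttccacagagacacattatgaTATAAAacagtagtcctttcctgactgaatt
Olfr630: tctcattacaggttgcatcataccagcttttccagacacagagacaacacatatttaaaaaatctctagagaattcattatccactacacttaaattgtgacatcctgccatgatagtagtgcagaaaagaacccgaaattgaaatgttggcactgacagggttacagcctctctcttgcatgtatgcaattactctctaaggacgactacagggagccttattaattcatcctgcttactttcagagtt
In Olfr67 TATAAA begins at -28 and in Olfr69 at -31 from the RefSeq start, with a further match at -235 in Olfr69. Olfr630 has its match at position 11, past the start and so outside the printed bases, and Olfr566 has none. Over the whole window of 300 bases, which runs 50 bases past the start, TATAAA was present on either strand in 3 of the 7 members (42.9%). It was present in 33.1% of 239 windows of other odorant receptors and in 12.7% of 31573 windows of all genes. These comparison sets hold windows not at a coding start, with no limit on the distance from the deposited start, unlike the 7 members. The Ebf core CCCNNGGG was present in 0 of the 7 members, in 7.53% of other receptors and in 14.0% of all genes. The homeodomain core TAATTA was present in 0 of the 7 members, in 19.2% of other receptors and in 4.9% of all genes. These are letter matches in 7 windows and say nothing of binding.

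Per kilobase of gene model, class I receptors stood well above the rest of the family. Averaged over the 18 libraries, the median member had 1.48 CPM per kb, against 0.156 CPM per kb for the 1006 other receptors. On chromosome 2 the median was 0.133, on chromosome 9 it was 0.258, and the 115 Olfr genes elsewhere on chromosome 7 had 0.128 CPM per kb. At least 3 counts in every library were found for 82.2% of the members and for 35.5% of the other receptors. The trace amine-associated receptors, another family of dorsal olfactory neurons, had a median of 2 CPM per kb over 15 genes. Their gene models are shorter, with a median of 1044 bases against 3041 for the members. Without division by length the order reversed, with a median of 2.08 CPM against 4.68 CPM for the members. These medians describe the genes of 1 tissue and were not tested. The single highest receptor lay outside the cluster, on chromosome 9, at 19.4 CPM per kb.

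The level differed widely between members. Olfr672 (ENSMUSG00000051172, chr7:104995760-105002029) had the highest mean at 11.3 CPM per kb, followed by Olfr549 (ENSMUSG00000073977, chr7:102549870-102555842) at 8.94, Olfr598 (ENSMUSG00000073951, chr7:103323568-103329888) at 8.16 and Olfr570 (ENSMUSG00000073964, chr7:102894577-102901710) at 7.56 CPM per kb. Olfr566, Olfr65, Olfr665, Olfr552, Olfr610 and Olfr67 filled the next places, between 4.67 and 5.11 CPM per kb. The coefficient of variation of these 10 receptors over the 18 libraries was 35.4% to 42.2%, against 8.86% to 28.4% as shares of the summed members, so neighbours in the order are compared within libraries. Per kilobase Olfr672 was above Olfr549 in 17 of 18 libraries and Olfr570 above Olfr566 in 17 of 18. Olfr549 was above Olfr598 in 13 and Olfr598 above Olfr570 in 11 of 18, and from Olfr566 to Olfr67 each receptor was above the next in 8 to 10 of 18 libraries, so these places are not settled. The order also depends on the length of the gene model. In mean CPM, not divided by length, Olfr552 (20.33) and Olfr653 (19.27) stood highest, and Olfr672 had 16.85. At the low end of those tested, Olfr556 had 0.142 and Olfr571 0.194 CPM per kb. The first receptor of the window, Olfr543, had 0.224 CPM per kb and was not tested, while the last, Olfr692, had 1.38 CPM per kb.

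High and low receptors lay side by side along the cluster. The 77 members before the beta globin genes had a median of 1.35 CPM per kb and the 52 after them 1.71 CPM per kb, and members on the plus and minus strands had medians of 1.44 and 1.52 CPM per kb. Expression was spread over many genes: the 10 members with the highest CPM held 22.1% of the summed level, and 26 to 29 receptors were needed in a library to reach 50% of it. Of the 10 members with the highest mean CPM, 6 to 9 were among the 10 highest of each single library.

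**Figure D1:**
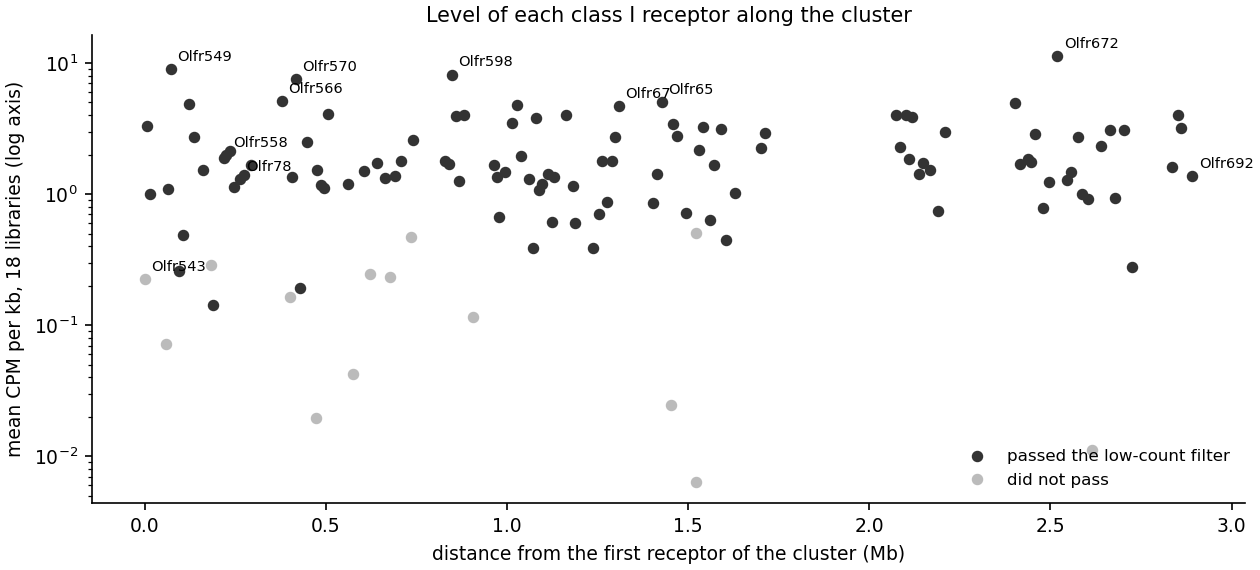
Mean level of each detected class I receptor over 18 libraries (CPM per kb, log axis) against its distance from the first receptor of the cluster (Mb); dark points passed the filter on low counts and grey points did not. Olfr672 is highest at 11.3 CPM per kb, and receptors far apart in level are neighbours along the whole cluster, which has a gap where the Trim genes lie.

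Among the receptors known for a ligand or for a role outside the nose, Olfr544, a receptor for azelaic acid, averaged 12.5 ± 3.4 CPM in C10, 9.46 ± 4.67 in CRS and 10.3 ± 4.74 in CON (SD, n = 6 each). Its neighbour Olfr545 averaged 3.87 ± 1.2, 3.29 ± 1.72 and 3.32 ± 1.77 CPM in C10, CRS and CON. Olfr558 (ENSMUSG00000070423) and Olfr78 (ENSMUSG00000043366) are also expressed by vascular smooth muscle in other tissues, and Olfr78 is known as a receptor of short-chain fatty acids and lactate. Olfr558 averaged 6.72 ± 1.93, 6.07 ± 1.96 and 5.22 ± 1.74 CPM, and Olfr78 9.14 ± 3.38, 8.53 ± 3.56 and 5.84 ± 2.4 CPM, in C10, CRS and CON. The means of both were highest in C10 and the groups overlapped. All 4 smooth muscle genes of the marker list (Acta2, Myh11, Tagln, Cnn1) had lower means in C10 and CRS than in CON, with a summed level of 347.9 to 724.6 CPM in C10, 369.2 to 691.5 CPM in CRS and 570.6 to 809.8 CPM in CON; the part of these cells was not tested. Reads of Olfr78 can be mixed with those of Olfr560, whose gene model lies within the same stretch on the same strand. Olfr569, Olfr691, Olfr690, Olfr554 and Olfr653 averaged between 4.48 and 22.9 CPM in C10, between 4.12 and 19.1 CPM in CRS and between 3.63 and 15.8 CPM in CON.

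The summed level of the cluster was highest in C10 and varied widely within each group. The 129 receptors summed to 656, 926 and 1219 CPM (lowest, median and highest library) in C10, 337, 739 and 1072 CPM in CRS and 268, 644 and 1060 CPM in CON. The means were 905 ± 221, 721 ± 286 and 652 ± 272 CPM in C10, CRS and CON (SD, n = 6 each), so the groups overlapped, and the difference between the C10 and CON means was of the size of the SD within a group. CRS 1 and CON 5, the lowest libraries, were also the lowest of their groups for Omp. The other receptors had the same order, with 1884 ± 460, 1512 ± 499 and 1321 ± 438 CPM in C10, CRS and CON. The members' share of all odorant receptor counts was nearly level, at 32.5 ± 2.9% in C10, 31.8 ± 2.93% in CRS and 32.4 ± 3.65% in CON, with single libraries between 27.7% (C10 5) and 36.9% (CON 2). No p is given for these sums, because the members were chosen with results of these libraries known.

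**Figure D2:**
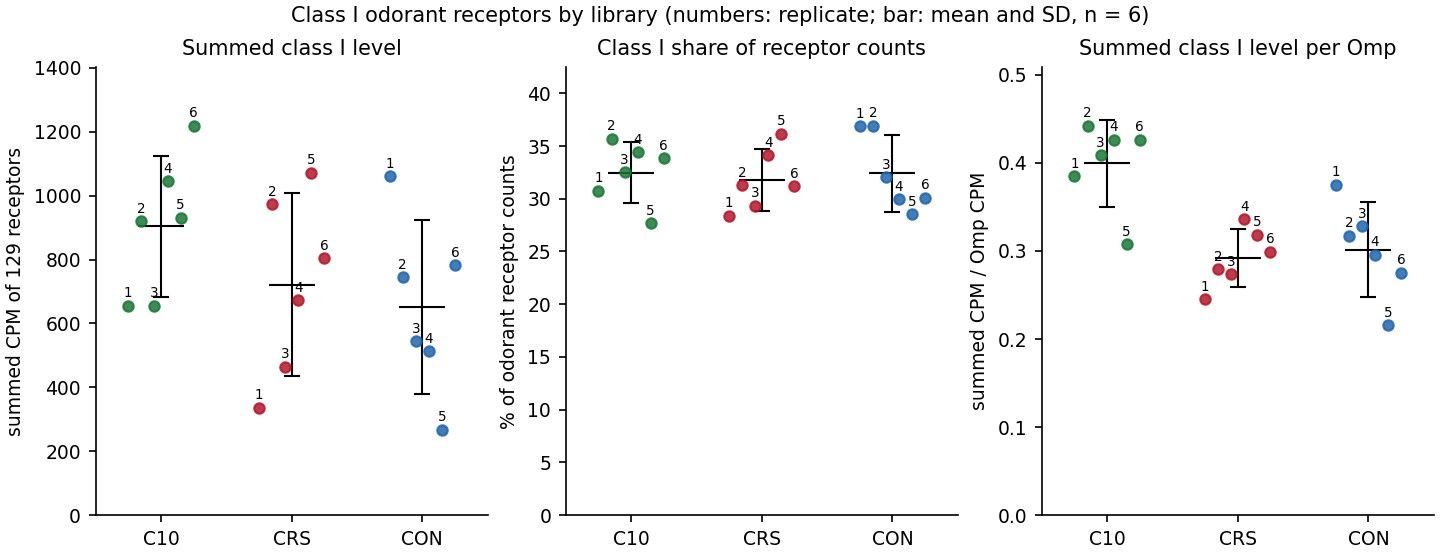
Summed CPM of the 129 class I receptors, their share of all odorant receptor counts (%) and their summed CPM divided by the CPM of Omp, in each library of C10, CRS and CON; numbers are replicates, and the bar shows the mean and SD (n = 6). The sums overlap between groups, the shares lie between 27.7% and 36.9%, and the ratio to Omp is 0.308 to 0.442 in C10 against 0.245 to 0.336 in CRS.

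Set against Omp, the mean receptor level in C10 stood above both other groups. The summed class I level divided by Omp was 0.399 ± 0.049 in C10, 0.292 ± 0.033 in CRS and 0.301 ± 0.054 in CON (SD, n = 6 each). In 5 of 6 C10 libraries the ratio was above every CRS and CON library, and C10 5, at 0.308, lay within the range of both. For the other receptors the ratio was 0.797 to 0.866 in C10, above 0.562 to 0.661 in CRS and 0.540 to 0.696 in CON without overlap. Omp itself did not separate the groups, with 2288 ± 591 CPM in C10, 2437 ± 882 CPM in CRS and 2108 ± 663 CPM in CON. Genes of immature olfactory neurons summed to 434.5 to 721.3 CPM in C10, 338.7 to 647.6 CPM in CRS and 289.4 to 504.9 CPM in CON. The part of immature neurons in these ratios was not tested. Of the mature neuron genes, Omp, Cnga2, Cngb1 and Gng13 had their highest mean in CRS. Gnal, Stoml3, Adcy3, Rtp1, Cnga4, Ano2, Rtp2 and Slc17a6 had it in C10. Slc17a6 averaged 92.6, 66.3 and 61.0 CPM in C10, CRS and CON. Ratios to genes other than Omp were not taken, so the separation is shown for Omp only.

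**Figure D3:**
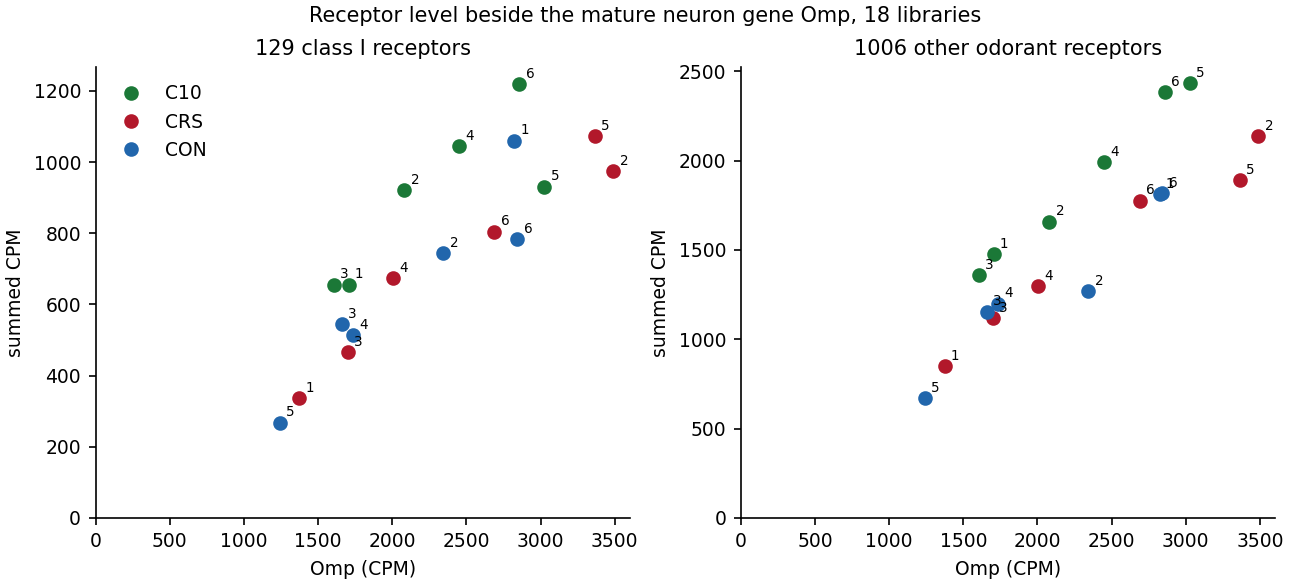
Summed CPM of the class I receptors (left) and of the other odorant receptors (right) against the CPM of Omp in each of 18 libraries, with replicate numbers. For the class I receptors the ratio to Omp is above every CRS and CON library in 5 of 6 C10 libraries, and C10 5 lies within their range; for the other receptors the ratio in C10, 0.797 to 0.866, does not overlap that of CRS or CON.

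The receptors varied together from library to library. The median coefficient of variation of a tested receptor over all 18 libraries was 41.4% in CPM and 23% when its level was taken as a share of the summed members, against 10.7% from counting alone. The share varied less than the CPM for 110 of 111 receptors; Olfr556 was the exception. Olfr619, Olfr630 and Olfr243 varied most as shares after Olfr556, at 63.1%, 55.8% and 51.3%.

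What the papain course changed is the question of CRS against CON. No class I receptor was called: edgeR's quasi-likelihood test gave 0 of 111 at an adjusted p under 0.05, where 0.00547% of all 18291 genes were called, and DESeq2, limma-voom with quality weights and edgeR with the mean level of mature neuron genes as a covariate also called 0 receptors, where they called 0.979%, 5.14% and 0.0109% of all genes. With an unadjusted p under 0.05, 1 receptor was higher and 0 were lower in CRS, against 7.75% and 6.30% of all genes. In all, 82 of 111 receptors had a log2 fold change above 0, against 50.8% of all genes, with a median of 0.17 (0.22 over 521 other receptors tested and 0.00 over all genes). With no filter the values were 89 of 125 and 0.16. This direction rested on single libraries: the median was -0.01 without CRS 5, 0.00 without CON 5, 0.07 without CRS 2, 0.33 without CRS 1, 0.34 without CON 1, 0.26 without CRS 3 and 0.11 without CON 4. Without CRS 2 and CRS 5 together it was -0.16, with 22 of 113 receptors above 0. These are the CRS libraries with the highest summed class I levels (974 and 1072 CPM), so leaving both out lowers the CRS side. With the mature neuron covariate the median was -0.09.

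Olfr658 (ENSMUSG00000070421, chr7:104642877-104647305) had the smallest p in this comparison. Its level was 3.26, 5.15 and 7.79 CPM in CRS and 1.56, 3.47 and 5.17 CPM in CON (lowest, median and highest library). 5 of 6 CRS libraries lay above the CON median, yet the groups overlapped (log2 fold change 0.58 ± 0.27 SE, edgeR adjusted p = 0.353). Next came Olfr641 (0.72 ± 0.38), Olfr666 (0.61 ± 0.36) and Olfr78 (0.55 ± 0.33). Below 0 the smallest p belonged to Olfr243 (-1.07 ± 0.54), Olfr606 (-0.59 ± 0.34), Olfr596 (-0.55 ± 0.36) and Olfr692 (-0.57 ± 0.46). Of these 7 none passed either, with edgeR adjusted p between 0.385 and 0.596.

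C10 against CRS addresses what the compound changed in papain-treated mice. None of the 111 receptors was called by edgeR, where 0.0820% of all genes were called. With an unadjusted p under 0.05, 15 receptors were higher in C10 and 0 lower, against 5.77% and 7.41% of all genes. The log2 fold change was above 0 for 96 of 111, against 51.7% of all genes, with a median of 0.29, close to the 0.28 of the 521 other receptors. With no filter 109 of 125 were above 0 and the median was 0.31. DESeq2 called 2 receptors, Olfr596 and Olfr630, where it called 1.91% of all genes, and limma-voom called 1, Olfr571, where it called 3.00%.

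**Figure D4:**
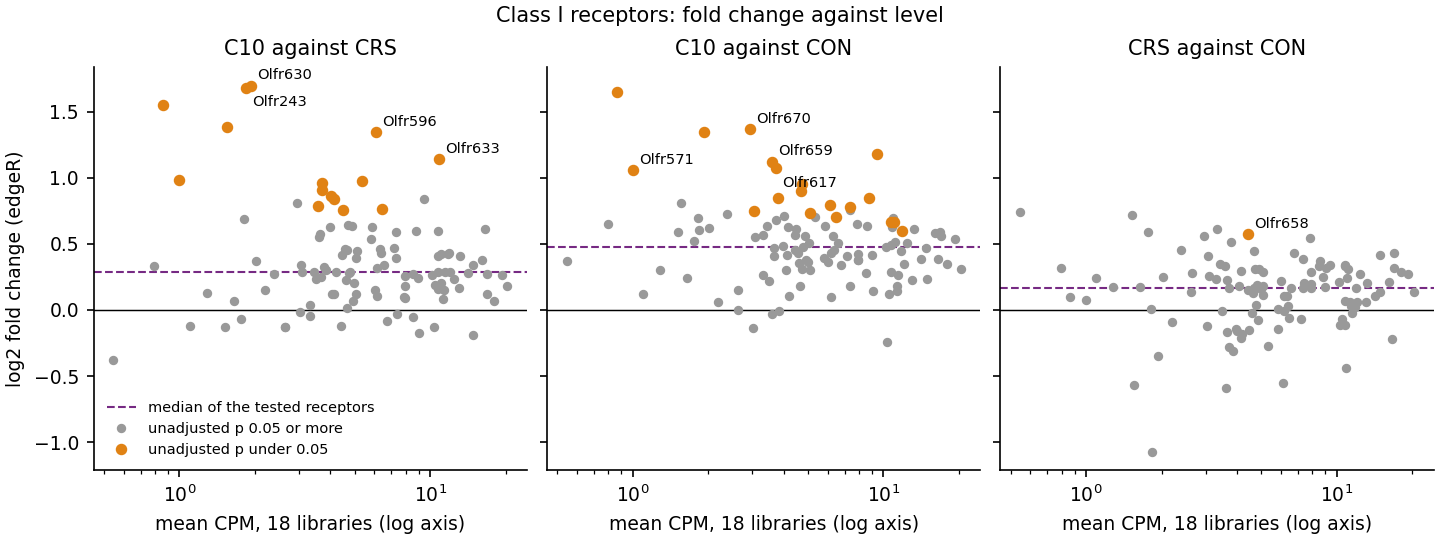
Log2 fold change (edgeR) of each of 111 tested class I receptors against its mean CPM (log axis) in C10 against CRS, C10 against CON and CRS against CON; orange points have an unadjusted p under 0.05 and the dashed line is the median. The medians are 0.29, 0.47 and 0.17, and 15, 19 and 1 receptors are orange, all above 0; none passed after adjustment over all genes.

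Olfr596 (ENSMUSG00000073953, chr7:103305648-103312782) had the smallest p. Its level was 5.67, 9.48 and 12.4 CPM in C10 and 1.68, 3.59 and 5.56 CPM in CRS (lowest, median and highest library), so that the groups did not overlap (log2 fold change 1.34 ± 0.36 SE, edgeR adjusted p = 0.136). Its share of the summed members was 1.02% in C10, 0.528% in CRS and 0.777% in CON. Olfr630 (ENSMUSG00000050281, chr7:103753480-103757333) did not overlap either and had a larger log2 fold change. It had 2.18, 2.53 and 6.76 CPM in C10 and 0.174, 1.2 and 1.46 CPM in CRS (1.70 ± 0.52, edgeR adjusted p = 0.178). Overlap was read only for the receptors named here, and picking these by smallest p favours groups that do not overlap. The share of all genes without overlap was not counted, so the lack of overlap adds no support. Olfr633 (ENSMUSG00000073937, chr7:103944437-103948963), at 1.14 ± 0.36 (edgeR adjusted p = 0.19), had 10.6, 15.5 and 22.8 CPM in C10 and 2.51, 6.88 and 11.3 CPM in CRS, with an overlap of the 2 lowest C10 libraries with CRS 6. Olfr243 had 1.81 to 4.2 CPM in C10 and 0.058 to 1.81 CPM in CRS (1.68 ± 0.54, edgeR adjusted p = 0.191). In CON these 4 receptors had medians of 5.41, 1.36, 10.7 and 1.77 CPM, above the CRS and below the C10 medians. The receptors with the smallest p below 0 were Olfr556 (-0.38 ± 0.46), Olfr578 (-0.19 ± 0.30), Olfr601 (-0.17 ± 0.32) and Olfr658 (-0.12 ± 0.27), with edgeR adjusted p of 0.795 to 0.896.

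The 15 receptors, of 111 tested, were not confined to one stretch: they lay from 0.43 Mb (Olfr571) to 2.89 Mb (Olfr692) from the first receptor. None of the 15 passed after adjustment, and 13.2% of all genes had an unadjusted p under 0.05 in either direction. In a fit with the mean level of the mature neuron genes as a covariate, edgeR called 14 of 111 receptors higher in C10 and 0 lower, where it called 2.98% of all genes. They were Olfr575, Olfr582, Olfr586, Olfr591, Olfr596, Olfr617, Olfr619, Olfr630, Olfr633, Olfr651, Olfr659, Olfr670, Olfr689 and Olfr692. In that fit Olfr596 had the lowest adjusted p of the members (0.00276), and 24 of 521 other receptors were called. Olfr619, which is also among the 15, passed the filter on low counts only through its C10 libraries. It had 17 to 47 counts in C10, 0 to 19 in CRS and 3 to 19 in CON, so its entry into the test depended on the group where it is high. CRS 2 and CRS 5 had the highest summed class I levels of the CRS group (974 and 1072 CPM), so leaving both out raises C10 against CRS. No fit left out the lowest CRS libraries together. Without CRS 2 and CRS 5, the median log2 fold change was 0.63 with 112 of 113 receptors above 0. It was 0.14 without CRS 1, 0.18 without C10 6, 0.19 without CRS 3 and 0.44 without CRS 5. The number of receptors with an unadjusted p under 0.05 was 10 without C10 4 or without C10 6, where 10.5% and 14.1% of all genes had one in either direction. It was 23 without CRS 2 (16.9% of all genes), 41 without CRS 2 and CRS 5 (17.8%) and 47 with the covariate (19.8%), against 13.2% of all genes in the fit of all libraries without the covariate.

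The comparison of C10 with CON sets mice given papain and compound against controls. edgeR again called 0 of 111 receptors, where 0.159% of all genes were called. With an unadjusted p under 0.05, 19 receptors were higher and 0 lower in C10, against 6.29% and 6.83% of all genes. Among the 19 is Olfr619, which passed the filter on low counts only through its C10 libraries. The log2 fold change was above 0 for 106 of 111, against 52.6% of all genes, with a median of 0.47 (0.52 over the other receptors, 1 of which was called), and with no filter for 119 of 125 with a median of 0.49. Both comparisons with C10 share the C10 libraries, and both comparisons with CON the CON libraries, so they are not independent. DESeq2 called Olfr670, where it called 1.74% of all genes, limma-voom called Olfr571, where it called 1.38%, and the fit with the mature neuron covariate called Olfr670 and Olfr689, where it called 1.29%. The number of receptors with an unadjusted p under 0.05 was 46 without CON 1, where 15.3% of all genes had one in either direction, against 13.1% with all libraries. It was 10 without C10 4 (9.94% of all genes) or C10 6 (10.8%), 11 without CON 4 (10.8%) and 12 without CON 3 (11.0%) or CON 5 (9.22%).

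Olfr670 (ENSMUSG00000044705, chr7:104957114-104962620) had the smallest p in C10 against CON. Its level was 2.46, 4.51 and 6.7 CPM in C10 and 0.667, 1.6 and 3.01 CPM in CON (lowest, median and highest library). All 6 C10 libraries lay above the CON median, and CON 1 overlapped with the lowest C10 libraries (log2 fold change 1.37 ± 0.40 SE, edgeR adjusted p = 0.169). Olfr571 (ENSMUSG00000043310, chr7:102905090-102917536) had 1.12, 1.35 and 2.17 CPM in C10 and 0.434, 0.609 and 1.48 CPM in CON (1.06 ± 0.34, edgeR adjusted p = 0.201). Only CON 1 among the CON libraries of Olfr571 reached the C10 range. Olfr659 (1.12 ± 0.36) and Olfr617 (1.07 ± 0.35) followed, each with an edgeR adjusted p of 0.207. The values below 0 were small: Olfr685 (-0.24 ± 0.33), Olfr560 (-0.14 ± 0.32), Olfr606 (-0.03 ± 0.33) and Olfr646 (-0.01 ± 0.42), with edgeR adjusted p of 0.794 to 0.997.

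**Figure D5:**
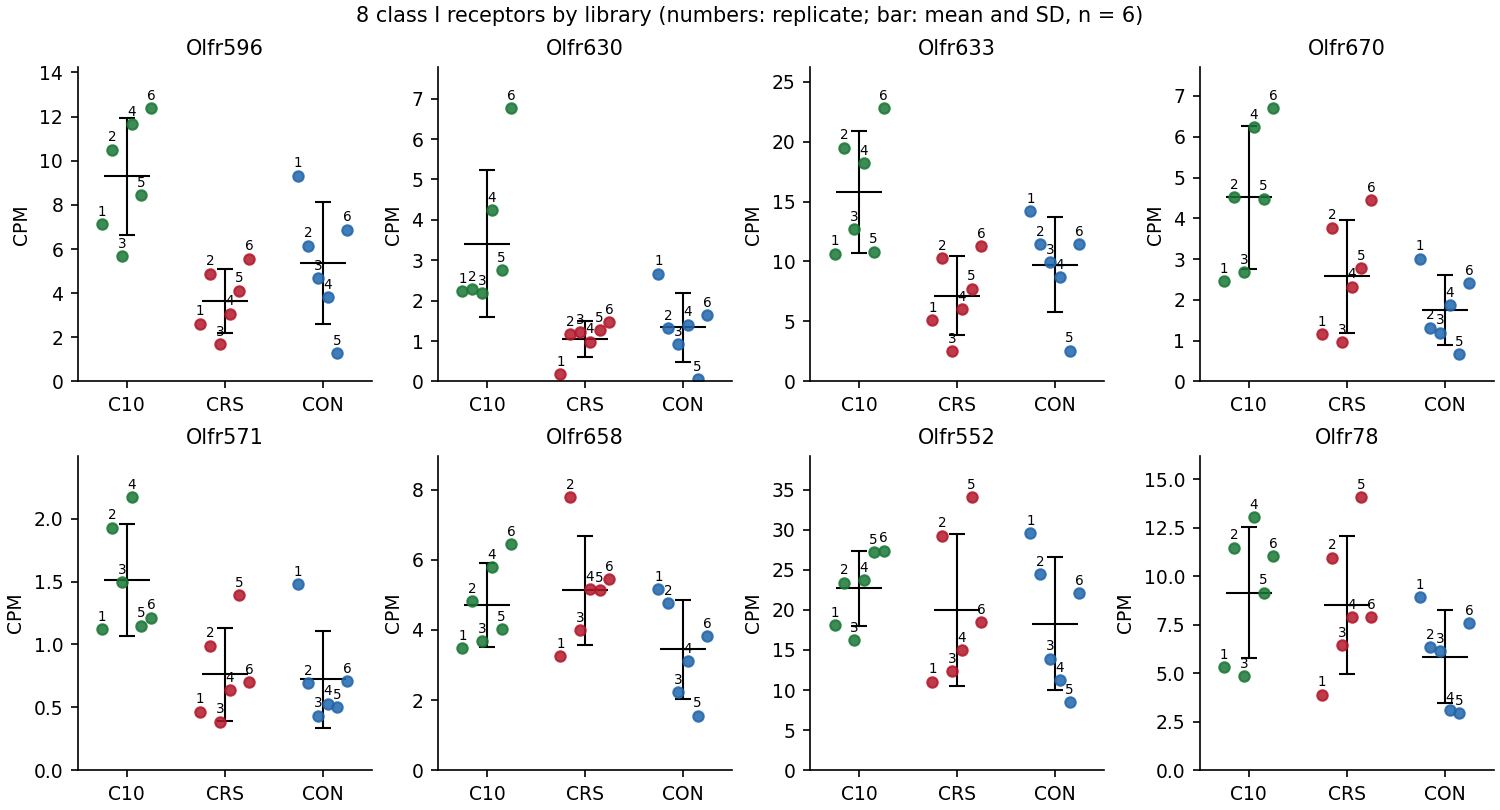
CPM of 8 class I receptors in each library of C10, CRS and CON; numbers are replicates, and the bar shows the mean and SD (n = 6). Olfr596 and Olfr630, which were picked by smallest p, do not overlap between C10 and CRS. Olfr658 is at a median of 5.15 CPM in CRS against 3.47 CPM in CON. Olfr552, the member with the most counts, overlaps widely, with medians of 23.6, 16.7 and 18 CPM in C10, CRS and CON.

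The log2 fold changes of the most abundant receptors lay on both sides of the medians of all 111 tested. Those medians were 0.29 for C10 against CRS, 0.47 for C10 against CON and 0.17 for CRS against CON. Olfr672 had 13, 20.8 and 26.5 CPM in C10, 7.15, 18.5 and 22.4 CPM in CRS and 6.17, 13.4 and 21.8 CPM in CON (lowest, median and highest library), a log2 fold change of 0.27 ± 0.28 for C10 against CRS and 0.59 ± 0.28 for C10 against CON. Among the 10 highest per kilobase, the log2 fold change ran from 0.06 (Olfr67) to 0.61 (Olfr598) for C10 against CRS, from 0.12 (Olfr566) to 0.59 (Olfr672) for C10 against CON and from -0.22 (Olfr598) to 0.43 (Olfr549) for CRS against CON. None of them passed in any comparison. The lowest CON value was that of CON 5 in all 10, and the highest was that of CON 1.

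Other genes of the pathway were read from lists chosen for this tissue, and edgeR called 0 of their members in all 3 comparisons. Of all genes it called 0.00547% for CRS against CON, 0.0820% for C10 against CRS and 0.159% for C10 against CON. At such shares, 0 calls in short lists say little of these genes. Of 24 genes of receptor choice and receptor transport, which include the choice factors Lhx2, Ldb1 and Ebf1 and the chaperones Rtp1 and Rtp2 that carry receptors to the cell surface, 2 were higher and 2 lower at an unadjusted p under 0.05 for C10 against CRS, 8.33% in each direction against 5.77% and 7.41% of all genes, which is near the background; Rtp1, Rtp2 and Adcy3 also stand in the mature neuron list. Bcl11b, a factor that favours class II over class I choice, was among the higher ones, at 32.5 ± 3.31 CPM in C10, 25.2 ± 6.95 CPM in CRS and 27.4 ± 5.23 CPM in CON (C10 against CRS, 0.36 ± 0.16, edgeR adjusted p = 0.33). The other was Kdm1a, a histone demethylase needed to open the chosen receptor gene (0.15 ± 0.07, edgeR adjusted p = 0.319), and the lower ones were the transcription factors Nfia (-0.34 ± 0.10, edgeR adjusted p = 0.175) and Nfib (-0.20 ± 0.08, edgeR adjusted p = 0.301). The 12 mature neuron genes had median log2 fold changes of 0.07 for C10 against CRS, 0.25 for C10 against CON and 0.18 for CRS against CON, smaller than those of the receptors in the comparisons with C10.

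All 5 immature neuron genes had an unadjusted p under 0.05 for C10 against CON, with a median log2 fold change of 0.68. Of all genes, 6.29% were higher and 6.83% lower at that threshold. Gap43, a growth cone protein of young neurons, averaged 68.5 ± 19.9 CPM in C10, 47.5 ± 24.1 CPM in CRS and 34.2 ± 10.8 CPM in CON (C10 against CON, 1.00 ± 0.30, edgeR adjusted p = 0.174). In C10 against CRS all 5 immature neuron genes were above 0, with a median of 0.45. Of them 0 had an unadjusted p under 0.05, against 5.77% of all genes higher and 7.41% lower. Of the 4 genes of the dorsal zone, where class I neurons lie, 4 were above 0 for C10 against CRS, 3 for C10 against CON and 2 for CRS against CON, with medians of 0.18, 0.31 and 0.05. The ventral zone genes Ncam2 and Nrp2 had 0.43 and 0.04 for C10 against CRS, 0.66 and -0.39 for C10 against CON, and 0.23 and -0.43 for CRS against CON. Of the dorsal genes, Acsm4 averaged 708 ± 184 CPM in C10, 545 ± 149 CPM in CRS and 558 ± 146 CPM in CON. The 28 tested protein-coding genes of the window that are no receptors, among them Cnga4, a channel subunit of mature olfactory neurons, had medians of 0.05, -0.03 and -0.04 for C10 against CRS, C10 against CON and CRS against CON.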

How the data were processed

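Counts per gene were deposited by the authors as whole numbers for 18 libraries, on build mm10 per the submitters' processing notes. The aligner, counter and annotation were not given in the sources used here. FPKM values deposited by the authors follow from the same counts and served only as an alternative. RNA was selected for poly(A) per the labels' protocols, which do not say that strand was kept. Of the deposited value columns, 0 were left unmatched.

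With edgeR 4.0.16 in R 4.3.3, filterByExpr kept 18291 of 54532 genes. After TMM scaling, 1 mean per group was fitted to all 18 libraries and tested with two-sided quasi-likelihood F-tests, and Benjamini-Hochberg values over all genes count as called when under 0.05. SE is the log2 fold change over the square root of F. CPM uses TMM-scaled sizes of the filtered libraries, and the per kb scale divides it by the file's gene length. The pipeline was tested on simulated data.

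Counts of similar receptors can be mixed: 47 members share over 10% of their 32-base words with another gene and 7 over 50%. By gene span, introns included, another gene overlaps 21 members, and for 15 it is another member, mostly the long model of Olfr643. Olfr643 itself had 2 counts in C10 3 and 0 in every other library. Without strand, reads where the exons of overlapping genes coincide cannot be separated.

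The members, the lists and the rule for named receptors were chosen with earlier results of these data known. The rule took the 10 highest per kb, per comparison the 4 of smallest p in each direction, any called receptor, 12 known from other work, and the first and last of the window. Alternatives were RLE factors, no filter, a filter of 1 CPM in 6 libraries, a block for the replicate number, fits to 2 groups, DESeq2 1.42.0, a covariate for the mean level of mature neuron genes, limma 3.58.1 (voom with quality weights, or log2 of FPKM plus 1 or 0.1), and leaving out libraries. No 2 libraries repeat each other: over 153 pairs, chi-square per degree of freedom was at least 13.5.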

Additional observations from a re-analysis of the deposited data

Results flagged for a closer look

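Within groups of 6 libraries, 129 sets of values of the 39 named receptors and of the cluster's sums were screened for a single library far from the others by Dixon's criterion, which chance meets in about 1 of 20 groups; 6 met it. C10 6 was high for Olfr606 (6.25 CPM, next 3.97), Olfr690 (14.9 CPM, next 8.63) and Olfr543 (0.957 CPM, next 0.448). CRS 1 was low for Olfr630 (0.174 CPM, next 0.986), one of the receptors that did not overlap between C10 and CRS. CON 5 was low for Olfr692 (0.167 CPM, next 1.44), and CON 1 was high for Olfr571 (1.48 CPM, next 0.71). 

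The 27 receptor rows of the same window that carry a pseudogene biotype entered no comparison above. They summed to 1.57 to 4.05 CPM in C10 (mean 2.97 ± 0.85), 0.116 to 2.24 CPM in CRS (mean 1.09 ± 0.88) and 0.556 to 1.64 CPM in CON (mean 1.26 ± 0.39; SD, n = 6 each). All C10 libraries but C10 2 lay above every CRS and CON library. Reads of a pseudogene can come from a similar receptor, and this was not tested.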

How the results depend on the processing

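The number of class I receptors called stayed at 0 in each of the 29 alternative fits for CRS against CON, and in 26 of 29 each for C10 against CRS and C10 against CON. The exceptions were the mature neuron covariate (14 for C10 against CRS, 2 for C10 against CON), DESeq2 (2 and 1) and voom (1 and 1); the cause was not tested. With 1 library left out the number stayed at 0 in all 18 fits of each comparison, and the lowest adjusted p of a member was 0.141, 0.0684 and 0.0789 for CRS against CON, C10 against CRS and C10 against CON. The log2 ratio of the mean summed level ran from -0.02 to 0.34, from 0.18 to 0.48 and from 0.31 to 0.66 when 1 library was left out, within the spread between libraries; without CRS 2 and CRS 5, an alternative added after seeing the data for the sums, it was -0.20 and 0.67 for the first pair of comparisons.

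Counts over all genes moved more: for CRS against CON edgeR called 1 gene, but 994 without CRS 1, DESeq2 179 and limma-voom 940; for C10 against CRS 15, but 545 with the covariate, 350 with DESeq2, 548 with limma-voom, and 7 to 81 with 1 library left out; for C10 against CON 29, but 236, 318 and 252, 161 with the 2 groups alone, and 3 to 110 with 1 library left out.

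Small values near 0 changed sign. For C10 against CRS, Olfr578 was 0.21, Olfr601 0.10 and Olfr658 0.056 without CRS 2 and CRS 5; with 1 library left out, Olfr578 ran from -0.36 to 0.0027 and Olfr658 from -0.25 to 0.018. For C10 against CON, Olfr606 was 0.015 on log2 of FPKM plus 0.1, and Olfr646 was 0.13 with the replicate block, 0.17 with limma-voom, 0.063 on log2 of FPKM plus 1 and 0.22 plus 0.1; with 1 library left out, Olfr560 ran from -0.38 to 0.018, Olfr606 from -0.21 to 0.14 and Olfr646 from -0.22 to 0.49.

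Same-numbered libraries of different groups did not vary together throughout (8 of 18 pairs correlated above 0.1, range -0.57 to 0.52). Between CRS and C10 the correlations were 0.519, 0.235, 0.358, -0.231, 0.291 and 0.0131 for replicates 1 to 6. The replicate number was not taken as a pairing in the main fit, and whether it marks one is not settled. With the replicate block, 0 receptors were called in each comparison, and 0, 13 and 12 genes in all for CRS against CON, C10 against CRS and C10 against CON.

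Depth limits the low members: counting alone gives a coefficient of variation of 32.8% for Olfr556 and 24.2% for Olfr571, against a median of 10.7% over the 111 receptors tested, and 18 members were too low to test. Detection at 1 or at 10 counts in place of 3 gave means of 120.7 or 112.5 receptors per library in C10, 117.8 or 108.2 in CRS and 118.8 or 107.3 in CON. Size factors and FPKM give no other value for the number detected, nor size factors for the share of counts, nor the detection minimum for the sums or shares.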
